A study of Mus musculus with 6 samples.

Results

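T cell receptor signalling is held in check by a small set of enzymes and adaptors inside the T cell, and 10 of their genes are described here in resting splenic CD8+ T cells (CD8-TC) that lack the transcription factor Runx3. The genes were taken by their symbols, from their known role, with no threshold on a measured value, although earlier results of these data were known when the list was chosen. They encode the diacylglycerol kinases Dgka and Dgkz, the phosphatases Ptpn22 and Ptpn6, the Sts protein Ubash3a, the ubiquitin ligases Cblb and Cbl, the kinase Csk with its membrane anchor Pag1, and the adaptor Grap. Each was represented by the brightest of its probe sets that carry this gene symbol alone. All 10 had such a probe set, they were 10 of the 9925 genes tested, and the signal of each reached the median of the array in all 6 arrays.

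The mice compared were 3 Runx3-/- and 3 WT males of the outbred ICR stock, aged 6 weeks, with 1 Affymetrix mouse Gene 1.0 ST array for each mouse. The cells were freshly isolated from spleen and not stimulated. Runx3-/- cells were bound to anti-CD8 magnetic beads and then passed through FACS, which took out dendritic cells positive for CD8 and CD11c. WT cells were bound to the same beads, and although 1 label mentions FACS for all samples, the more detailed label and the study's methods mention it for Runx3-/- cells alone. If so, the sorting step and the genotype cannot be told apart in these arrays.

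When the T cell receptor is engaged, the Src family kinases Lck and Fyn phosphorylate the receptor chains, Zap70 docks there, and a scaffold of Lat and Lcp2 (SLP-76) recruits phospholipase C gamma. The diacylglycerol made by the phospholipase opens the branches to Ras and to protein kinase C theta. The negative regulators act at successive points of this chain. Csk, held at the membrane by Pag1, keeps Lck and Fyn inactive, phosphatases remove the phosphates of Lck, Zap70 and their partners, Cbl proteins tag signalling proteins with ubiquitin, and diacylglycerol kinases turn diacylglycerol into phosphatidic acid. They are known for setting how strongly a naive T cell must be stimulated before it responds.

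Values are deposited RMA signals on the log2 scale, so that a difference of 1 is a change of 2-fold, and signals are compared between arrays and not between genes. Runx3 itself read 7.06, 7.17 and 7.64 in the Runx3-/- arrays and 7.09, 7.30 and 6.99 in the WT arrays. No source used here states which part of the transcript its probe set reads, so that this level does not check the genotype labels, whereas Cd4 (5.92-fold higher in Runx3-/- cells) and Itgae (6.12-fold lower) separated all arrays by genotype. The CD8 T cell genes Cd8a, Cd8b1 and Cd3g were bright in every group, with mean log2 signals of 11.06, 10.56 and 11.38 in Runx3-/- cells and 11.10, 10.70 and 11.20 in WT cells. These are the 3 brightest of 10 CD8 T cell markers tested, of which 7 had a positive difference, 1 (Cd247) was called higher and 0 lower, with a median difference of 0.19. Many markers of other spleen cells were lower in Runx3-/- samples, though most dendritic cell markers did not pass. Of 17 B cell markers tested 16 fell, and the linear signals of the 17 measured summed to between 362 and 433 in Runx3-/- arrays and between 1565 and 2411 in WT arrays. Of 20 macrophage and monocyte markers tested 19 fell, with sums over the 23 measured of 758 to 1175 in Runx3-/- and 3726 to 4097 in WT arrays. Of 11 erythroid markers tested 8 fell and 1 rose, with sums over the 12 measured of 298 to 319 against 546 to 795. Of 17 dendritic cell markers 4 fell and 13 did not pass. Their sums over the 18 measured overlapped (3433 to 6127 against 5966 to 10795). Of 9 natural killer cell markers 3 fell and 1 rose, with sums over the 12 measured of 857 to 1445 against 2175 to 2272. The rises, named after their values were seen, were those of Gata1 (0.79, erythroid) and Gzma (2.48, natural killer cell). The 3 brightest B cell markers, Cd79b, Cd79a and Ly86, differed by -2.29, -3.20 and -1.60 on the log2 scale, and the 3 brightest macrophage markers, Mpeg1, Slc40a1 and Lyz2, by -0.86, -3.02 and -2.81. Of the 3 brightest natural killer cell markers, Nkg7 (-1.51) and Klrd1 (-2.03) fell and Prf1 (-0.09) did not pass. Of the erythroid ones, Car2 (-1.70) and Cpox (-0.79) fell and Tfrc (-0.02) did not pass. Among those of dendritic cells, H2-Eb1 (-1.03), Cd74 (-0.88) and H2-Aa (-0.60) did not pass. A marker was tested when it reached the array median in at least 1 array, so that it could enter through 1 genotype alone. Calls of such markers are partly set by this filter. Below the median in all Runx3-/- arrays were 6 of 12 erythroid, 6 of 23 macrophage and 2 of 17 B cell markers measured. In all WT arrays these counts were 2, 3 and 0. For natural killer and dendritic cell markers they were 4 of 12 and 2 of 18 in Runx3-/-, and 3 and 1 in WT arrays. In RNA of bulk samples like these, fewer cells of a type and less RNA per cell cannot be told apart.

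Across the 10 negative regulators the differences between Runx3-/- and WT cells ran in both directions. Dgka, Ubash3a and Grap were higher in Runx3-/- CD8-TC, by 1.69-, 1.54- and 1.44-fold, and Ptpn6 was 1.34-fold lower (limma, p adjusted over all 9925 genes by the Benjamini-Hochberg method, threshold 0.05). The other 6 did not pass. Thus 4 of 10 were called, against 11.6% of all genes tested, with 3 higher (5.63% of all genes tested) and 1 lower (6.01%). The 2 sets differ in signal, since all 10 reached the array median in all 6 arrays and a tested gene needed this in only 1. At an unadjusted p under 0.05 there were 7 of 10, against 27.7% of all genes. In 8 of the 10 the Runx3-/- and WT arrays did not overlap, which was so for 33.6% of all genes. The median of the 10 differences was 0.21 on the log2 scale, and that of all genes tested was 0.01. That of the 10 CD8 T cell markers tested was 0.19, and in both lists 7 of 10 differences were positive. A median of this size was thus not particular to the regulators. A change of at least 1.5-fold with an unadjusted p under 0.05, the thresholds of the study's methods, was met by Dgka and Ubash3a, both higher, against 8.08% of all genes in either direction and 3.12% upward, and by 1 regulator without Runx3-/- replicate 1.

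**Figure D1:**
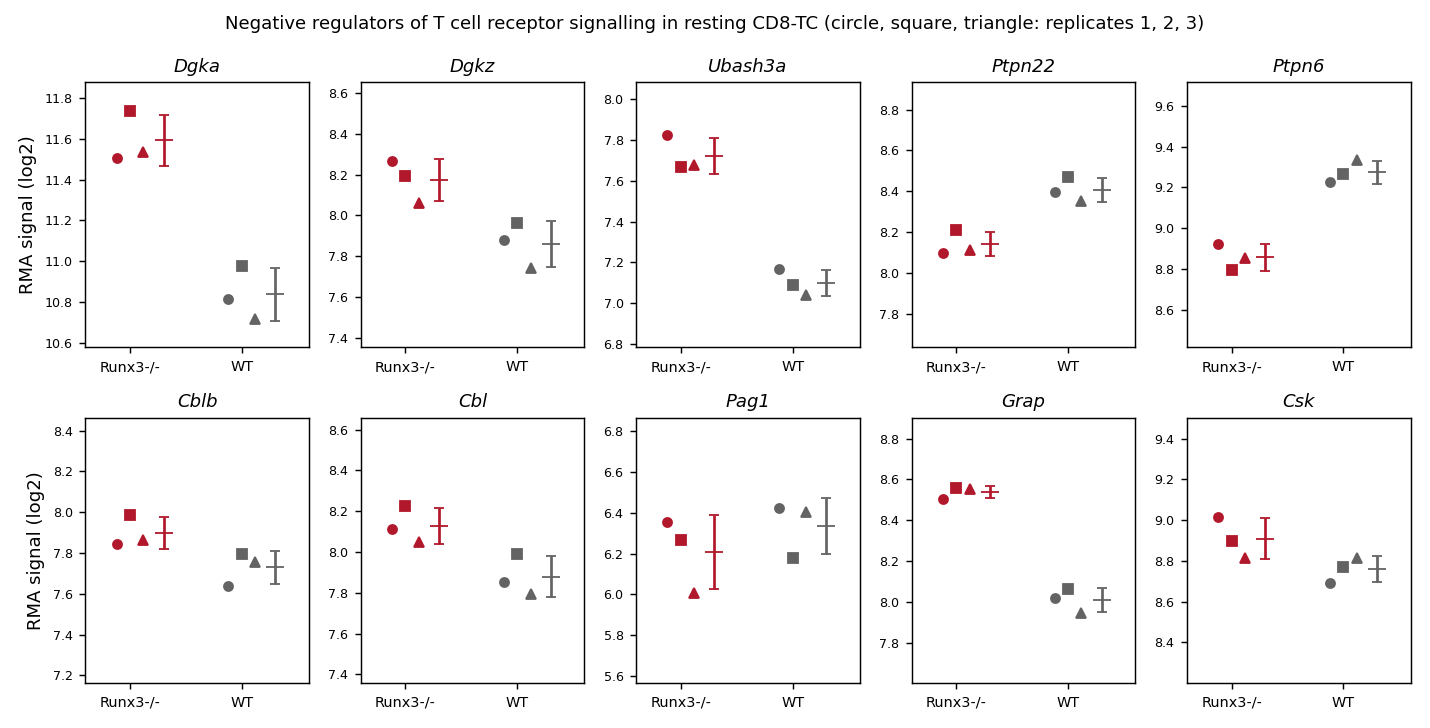
Signal after RMA, as log2 (on the vertical axis) of the 10 genes in each Runx3-/- (red) and WT (grey) array, with the mean and SD of 3 mice beside the points. The red points lie above all grey points for Dgka, Dgkz, Ubash3a, Cblb, Cbl and Grap and below them for Ptpn22 and Ptpn6, while those of Pag1 and Csk overlap.

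The canonical binding sequence of the RUNX factors is a run of 6 bases, searched here on both strands as TGTGGT, with the variants TGTGGC and then TGCGGT and finally TGCGGC, in promoter windows of 300 bases (250 before and 50 after a RefSeq start site, GRCm38.p6). Windows were found for 8 of the 10 genes, Grap and Pag1 having none in the table used, and some genes had several. Of the 14 windows 6 held a match (42.9%), against 45.2% of all windows of this length, so that the share was close to that of promoters in general. No matches overlapped each other. Matches lay in windows of Dgka, Dgkz, Ubash3a, Ptpn22 and Csk. By gene this was 5 of 8, against 54.4% of the tested genes that have a window. Shown are windows of genes that were called, 1 with a match from each of the 2 risen genes that have a window and the single window of Ptpn6, and the Ptpn22 window, which held 3 matches. Capitals mark the matches, each written as read on the strand of the gene, so that ACCGCA and ACCACA stand for TGCGGT and TGTGGT on the opposite strand.
Ubash3a, chr17:31207816-31208115, plus strand: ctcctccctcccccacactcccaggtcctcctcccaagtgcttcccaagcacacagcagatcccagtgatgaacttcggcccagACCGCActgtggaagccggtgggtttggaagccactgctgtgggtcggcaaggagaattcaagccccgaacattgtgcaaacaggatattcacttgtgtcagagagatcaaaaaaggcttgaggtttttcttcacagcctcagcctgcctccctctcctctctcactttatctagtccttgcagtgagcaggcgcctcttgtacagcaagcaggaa
Dgka, chr10:128743829-128744128, minus strand: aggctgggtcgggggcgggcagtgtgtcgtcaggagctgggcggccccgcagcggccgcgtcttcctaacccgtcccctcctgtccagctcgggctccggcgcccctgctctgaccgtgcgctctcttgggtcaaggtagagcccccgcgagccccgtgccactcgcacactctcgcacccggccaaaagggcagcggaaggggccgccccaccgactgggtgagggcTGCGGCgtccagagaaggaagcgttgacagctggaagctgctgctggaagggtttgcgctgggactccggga
Ptpn6, chr6:124738660-124738959, minus strand: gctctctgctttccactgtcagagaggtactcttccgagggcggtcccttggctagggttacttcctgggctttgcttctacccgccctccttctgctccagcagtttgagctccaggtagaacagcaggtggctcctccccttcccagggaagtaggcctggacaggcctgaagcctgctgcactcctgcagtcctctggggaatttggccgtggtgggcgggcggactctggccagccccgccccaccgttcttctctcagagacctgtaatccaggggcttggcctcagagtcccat
Ptpn22, chr3:103860027-103860326, plus strand: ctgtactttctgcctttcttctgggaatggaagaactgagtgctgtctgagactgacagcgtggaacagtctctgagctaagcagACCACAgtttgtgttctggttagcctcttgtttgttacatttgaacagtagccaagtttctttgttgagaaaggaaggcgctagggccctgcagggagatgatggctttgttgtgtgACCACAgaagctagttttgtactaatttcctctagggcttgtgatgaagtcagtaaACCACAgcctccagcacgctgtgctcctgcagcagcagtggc

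In the windows shown, the match of Ubash3a began at position -166 from the start site, that of Dgka at -22, and those of Ptpn22 at -165, -48 and 8. Another window of Dgka held a match (TGTGGC) at 17, its remaining windows held 0, and another window of Ptpn22 held 0. Ubash3a and Dgka, with 1 match in each window shown, were higher in Runx3-/- cells, whereas Ptpn22, with 3 matches in the window shown, had a lower signal that did not pass. A match is a description of these letters only, and binding of Runx3 was not analysed here.

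Diacylglycerol kinases end the diacylglycerol signal, and Dgka is the isoform most tied to T cell unresponsiveness. Dgka (probe set 10373542) read 11.50, 11.74 and 11.54 in the Runx3-/- arrays, against 10.82, 10.98 and 10.72 in the WT arrays. Every Runx3-/- array lay above every WT array, with a gap of 0.53 between the nearest arrays. Dgka was thus higher by 0.76 ± 0.11 (SE, n = 3 mice per genotype, 95% interval 0.51 to 1.01, limma adjusted p = 0.00403). Of all genes tested 165 had a larger rise. It kept its side of the threshold without any 1 array, with differences from 0.68 to 0.83, and passed under 15 of the 16 alternatives tried, the exception being the fit without moderation of variances (adjusted p = 0.0678).

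Dgkz, the other main diacylglycerol kinase of T cells, read 8.26, 8.19 and 8.06 in Runx3-/- arrays and 7.88, 7.96 and 7.74 in WT arrays. The groups did not overlap, but the nearest arrays were only 0.10 apart. Its difference of 0.31 ± 0.10 (SE) had a 95% interval from 0.08 to 0.55 and did not pass (limma adjusted p = 0.0872). A second, dimmer probe set of Dgkz (10485115) read between 2.79 and 2.97 in all 6 arrays, below the array median throughout, and averaging both probe sets gave 0.17. In each array the signal of Dgka was then set against that of Dgkz to ask whether both kinases changed alike. The difference of Dgka exceeded that of Dgkz by 0.44 ± 0.09 (SE), with no overlap between genotypes. For this and every later pair the SE was pooled from the arrays of both genotypes, without moderation of variances. It is therefore not to be set against the SE of a single gene, which limma moderated.

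Ubash3a, which encodes the T cell member of the Sts family, a ubiquitin-binding protein that dampens receptor signalling, rose. It read 7.83, 7.67 and 7.68 in Runx3-/- arrays and 7.17, 7.09 and 7.04 in WT arrays (probe set 10443749). The nearest arrays of the genotypes lay 0.50 apart, several times the SD of 0.09 among Runx3-/- and 0.06 among WT mice. The difference was 0.62 ± 0.09 (SE, 95% interval 0.41 to 0.84, limma adjusted p = 0.00458), and it passed under all 16 alternatives tried. Its relative Ubash3b, the more widely expressed Sts protein with the stronger phosphatase activity, varied widely among the WT mice. Ubash3b read 5.29, 5.78 and 5.10 in Runx3-/- arrays and 4.26, 4.84 and 5.66 in WT arrays, and its difference of 0.47 ± 0.32 did not pass.

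The phosphatases Ptpn6 and Ptpn22 had lower signals in Runx3-/- CD8-TC. Ptpn6, which encodes SHP-1, a phosphatase that inhibitory receptors recruit in T cells, B cells and myeloid cells, read 8.92, 8.80 and 8.85 in Runx3-/- arrays and 9.22, 9.27 and 9.34 in WT arrays (probe set 10547769). The groups were 0.30 apart at their nearest. Ptpn6 fell by 0.42 ± 0.09 (SE, 95% interval -0.62 to -0.22, limma adjusted p = 0.0211). This call did not hold without Runx3-/- replicate 2 (adjusted p = 0.0726), Runx3-/- replicate 3 (0.059), WT replicate 1 (0.0547), WT replicate 2 (0.0595) or WT replicate 3 (0.054), although the difference stayed between -0.45 and -0.39. The summed B cell markers were 362, 392 and 433 in Runx3-/- replicates 1, 2 and 3, in another order than Ptpn6, and 1565, 2021 and 2411 in WT replicates 1, 2 and 3, in the same order as Ptpn6. The summed macrophage markers were 758, 1175 and 1033 in Runx3-/- replicates 1, 2 and 3, the reverse of the order of Ptpn6, and 3726, 3822 and 4097 in WT replicates 1, 2 and 3, the same order as Ptpn6. B cells and macrophages also express Ptpn6, and whether RNA of these cells has a part in its fall was not tested.

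Ptpn22, which encodes the phosphatase PEP, a partner of Csk that acts on Lck and Zap70, read 8.10, 8.21 and 8.11 in Runx3-/- arrays and 8.40, 8.47 and 8.35 in WT arrays. All Runx3-/- arrays lay below all WT arrays, by 0.14 at the nearest. The difference of -0.27 ± 0.09 (SE, 95% interval -0.47 to -0.06) did not pass (limma adjusted p = 0.0924). Both phosphatases were compared with their closest relatives. Ptpn11, which encodes SHP-2, gave 0.06, and relative to it Ptpn6 was lower by 0.48 ± 0.05 (SE without moderation) in Runx3-/- arrays. Ptpn12, which encodes PTP-PEST, gave 0.27, so that Ptpn22 differed from it by -0.53 ± 0.12. In both pairs the arrays of the genotypes did not overlap.

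The ubiquitin ligases Cblb and Cbl had slightly higher signals that did not pass. Cblb, known for making T cell activation depend on CD28 costimulation, read 7.84, 7.99 and 7.86 in Runx3-/- arrays and 7.64, 7.80 and 7.75 in WT arrays. The nearest arrays were 0.05 apart, and the difference was 0.17 ± 0.09 (SE, 95% interval -0.05 to 0.38, limma adjusted p = 0.286). Cbl, which marks receptor chains and kinases for breakdown, read 8.11, 8.22 and 8.05 in Runx3-/- arrays and 7.85, 7.99 and 7.79 in WT arrays. Its groups were 0.06 apart, with a difference of 0.25 ± 0.10 (95% interval 0.03 to 0.47, adjusted p = 0.139). The difference of Cblb minus that of Cbl was -0.08 ± 0.06, and in this measure the arrays of the genotypes overlapped.

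Csk and Pag1 overlapped between the genotypes. Csk read 9.01, 8.90 and 8.81 in Runx3-/- arrays and 8.69, 8.77 and 8.82 in WT arrays, with a difference of 0.15 ± 0.09 (SE, 95% interval -0.07 to 0.37, limma adjusted p = 0.349). Pag1 read 6.36, 6.26 and 6.01 in Runx3-/- arrays and 6.43, 6.18 and 6.40 in WT arrays. It had the widest interval of the 10 genes, -0.41 to 0.15, around a difference of -0.13 ± 0.12 (adjusted p = 0.549). These intervals hold the changes of Csk and Pag1 that 3 arrays per genotype do not exclude. The anchor relative to the kinase gave -0.28 ± 0.11, and the arrays of the genotypes did not overlap in this measure. The nearest arrays were close, Runx3-/- replicate 2 at -2.63 and WT replicate 2 at -2.59.

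Grap, an adaptor of the Grb2 family found in lymphocytes and known to restrain their proliferation, rose with little spread among mice. It read 8.50, 8.56 and 8.55 in Runx3-/- arrays and 8.02, 8.06 and 7.95 in WT arrays (probe set 10376796). The groups were 0.44 apart at their nearest, and the SD was 0.03 among Runx3-/- and 0.06 among WT mice. The difference was 0.53 ± 0.09 (SE, 95% interval 0.33 to 0.73, limma adjusted p = 0.00694), and it passed under all 16 alternatives tried. The related adaptors, which carry signals forward, did not pass. Grb2, which brings Sos to Lat, gave -0.14, and Grap2 (Gads), which joins Lcp2 to Lat, gave 0.19. Relative to Grb2 the rise of Grap was larger by 0.67 ± 0.11, and relative to Grap2 by 0.34 ± 0.08.

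**Figure D2:**
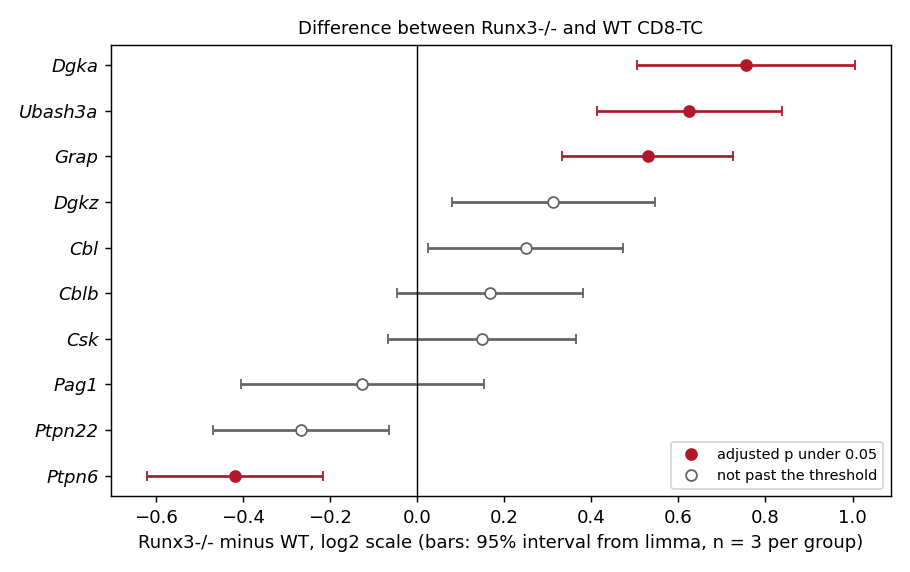
Difference between Runx3-/- and WT on the log2 scale (horizontal axis) for each of the 10 genes (vertical axis), with its 95% interval from limma for n = 3 mice per group. Dgka (0.76), Ubash3a (0.62), Grap (0.53) and Ptpn6 (-0.42) passed the adjusted threshold (filled), and the intervals of Cblb, Csk and Pag1 include 0.

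These contrasts between related genes were made for 8 pairs by an exact two-sided permutation test over the arrays, on the signal of 1 gene minus that of the other within each array. With 3 arrays against 3 the smallest p this test can give is 0.1, so that no pair could pass a threshold of 0.05. In 6 of the 8 pairs the exact p was 0.1 (0.133 adjusted over the 8 pairs), namely Dgka with Dgkz, Ptpn22 with Ptpn12, Ptpn6 with Ptpn11, Grap with Grb2, Grap with Grap2 and Pag1 with Csk. It was 0.3 for Cblb with Cbl and 0.8 for Ubash3a with Ubash3b. The last pair gave 0.16 ± 0.49 (SE), and its sign turned without WT replicate 3 (-0.24). How many other gene pairs have no overlap between the genotypes was not computed. Among single genes tested the share was 33.6%, so that 6 of 8 was not read as a result about these pairs.

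**Figure D3:**
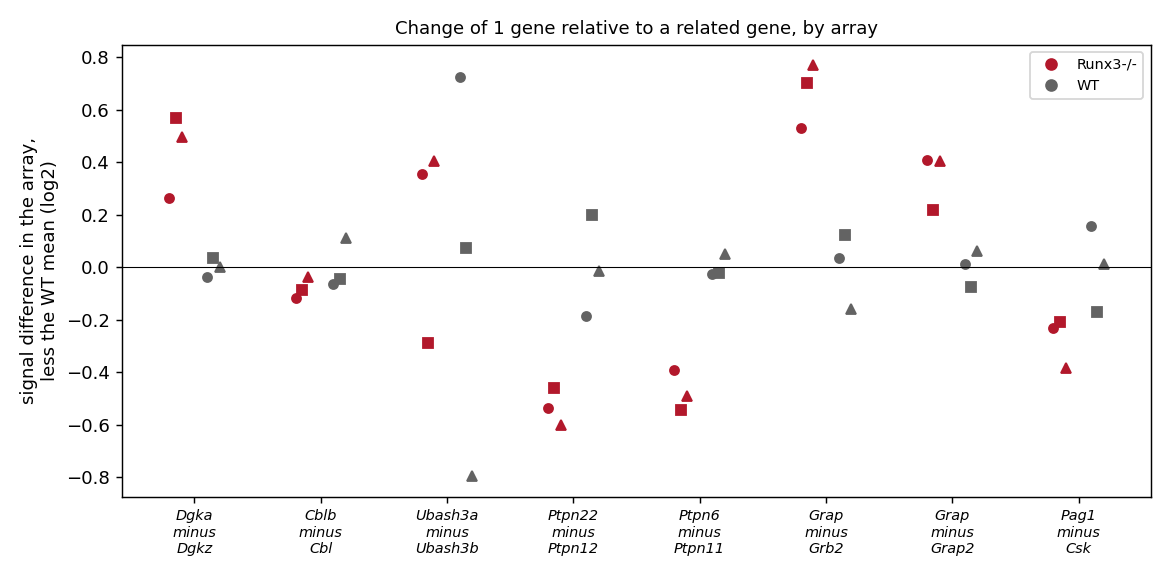
Signal of 1 gene minus that of a related gene within each array, less the WT mean of that difference (vertical axis, log2 scale), for 8 pairs (horizontal axis) in Runx3-/- (red) and WT (grey) arrays, where circle, square and triangle are replicates 1, 2 and 3. The genotypes do not overlap in 6 pairs, and they overlap for Cblb with Cbl and for Ubash3a with Ubash3b. Among single genes tested 33.6% do not overlap, and the share over other gene pairs was not computed.

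The genes around the 10 were then examined by lists. Of 13 family relatives tested (of 18 listed), none passed in limma, against 11.6% of all genes, and 2 had an unadjusted p under 0.05, against 27.7% of all genes, namely the Lck-binding adaptor Lime1 (0.24 ± 0.09, SE) and Ptpn12 (0.27 ± 0.10). Dgkd (0.21) and Dgkh (-0.29), further diacylglycerol kinases, had adjusted p values of 0.203 and 0.195. In the fit without Runx3-/- replicate 3, 1 relative was lower. The list's median was 0.06. Some relatives were dim, such as Ptpn18 (chosen after its values were seen) and Dgkh. Their WT means of 3.46 and 3.97 were near the array medians of 3.45 to 3.53. Others, such as Grap2 (9.64) and Dgkd (8.04), were bright. The WT means of the 10 regulators ran from 6.34 to 10.84, so that the 2 lists differ in signal. The 95% interval of Ubash3b, -0.27 to 1.21, includes differences of the size seen in Dgka, Ubash3a and Grap.

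Of 30 other negative regulators tested (of 34 listed), 2 rose and 6 fell, against 5.63% and 6.01% of all genes, and the median was 0.05. Rasal3, a GTPase-activating protein that switches off Ras in blood cells, rose by 0.46 ± 0.09 (SE, 9.73 in Runx3-/- and 9.27 in WT, limma adjusted p = 0.0156). The largest falls were those of Ptprj (CD148), a receptor phosphatase (4.56 in Runx3-/- and 6.56 in WT; -1.99 ± 0.23), the ubiquitin ligase Nedd4 (5.84 and 7.68, -1.84 ± 0.25) and Dok3, an adaptor of B cells and macrophages (3.53 and 5.10, -1.57 ± 0.16), with adjusted p values of 0.00146, 0.00281 and 0.000726. Chosen after their values were seen, the remaining calls were a rise of the adaptor Dok2 (0.40, adjusted p = 0.0499) and falls of Dok1 (-0.55), Tob1 (-0.45) and Dusp22 (-0.40). In the same Runx3-/- arrays 16 of 17 B cell markers and 19 of 20 macrophage markers were lower. Their part in what Ptprj, Nedd4 and Dok3 showed was not tested. The falls numbered 3 when Runx3-/- replicate 2, Runx3-/- replicate 3, WT replicate 1 or WT replicate 2 was left out. The rises numbered 0 when Runx3-/- replicate 2 was left out, and 1 when Runx3-/- replicate 3 or any single WT array was.

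Of 24 genes of the proximal T cell receptor machinery tested, 8 rose and 0 fell (33.3%, against 11.6% of all genes), with a median of 0.20, near the 0.21 of the regulators. The costimulatory receptor Cd28 rose by 0.99 ± 0.16 (SE, 8.51 in Runx3-/- and 7.52 in WT), the scaffold Lcp2 by 0.63 ± 0.10 (8.88 and 8.25), the zeta chain Cd247 by 0.61 ± 0.12 (6.71 and 6.11) and the kinase Zap70 by 0.44 ± 0.09 (7.67 and 7.23), with limma adjusted p values between 0.00614 and 0.0211. The other 4, named after their values were seen, were Lat (0.55), Fyb (0.47), Plcg1 (0.44) and Fyn (0.39). These rises numbered 4 when Runx3-/- replicate 1, Runx3-/- replicate 3 or WT replicate 1 was left out, 2 when Runx3-/- replicate 2 was, and 5 when WT replicate 3 was. Zap70, Lat and Lcp2, which carry the signal forward, were thus higher in the same arrays as Dgka, Ubash3a and Grap. Summed over the 24 machinery genes the linear signal was 18370, 18267 and 16605 in Runx3-/- arrays and 16512, 16356 and 14439 in WT arrays, so that the lowest Runx3-/- array lay just above the highest WT array.

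The branch that diacylglycerol kinases limit held 1 call. Of 18 genes tested (of 24 listed) 0 rose and 1 fell, against 11.6% called among all genes, with a median of -0.08. The single fall was that of Rasgrp3 (3.64 in Runx3-/- and 5.34 in WT; -1.70 ± 0.32, SE, limma adjusted p = 0.0139), a Ras activator known from B cells, and it did not pass without Runx3-/- replicate 3. In the same Runx3-/- arrays 16 of 17 B cell markers were lower, and whether they have a part in the fall of Rasgrp3 was not tested. Rasgrp1, the Ras activator that diacylglycerol recruits in T cells, gave 0.20 ± 0.12 (adjusted p = 0.327, chosen after its values were seen). Protein kinase C theta, encoded by Prkcq, gave 0.38 ± 0.12 (adjusted p = 0.0725), Prkd2 gave 0.35 ± 0.11 (0.0758), and Sos2, a Ras activator that Grb2 carries, gave -0.50 ± 0.14 (0.0529). At an unadjusted p under 0.05 there were 4 of 18, against 27.7% of all genes.

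**Figure D4:**
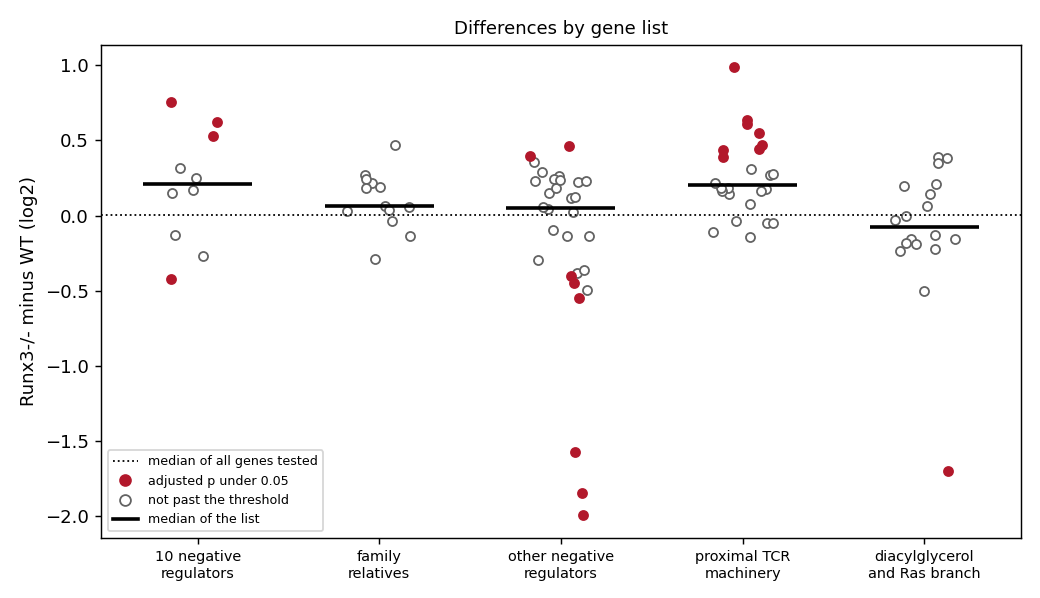
Difference between Runx3-/- and WT on the log2 scale (vertical axis) for each tested gene of 5 lists (horizontal axis), with filled points for an adjusted p under 0.05, a bar at each list's median and a dotted line at the median of all 9925 genes. The 10 regulators and the proximal machinery have medians of 0.21 and 0.20, and the other negative regulators reach down to -1.99.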

How the data were processed

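RNA of freshly isolated splenic CD8-TC was hybridised to Affymetrix mouse Gene 1.0 ST arrays, 1 per mouse. Signals were summarised by the authors with RMA and GC correction, in the Partek software, and the deposited values are log2. The Partek version and any genome build were not found in the labels or methods. GEO's platform annotation paired 21789 of 35399 probe sets with 1 gene symbol, 1621 with several (not named) and 11989 with none, and symbols were checked against RefSeq through Entrez identifiers (21698 matched, 0 updated). A gene was tested when a probe set reached its array's median in at least 1 of the 6 arrays, and the brightest such probe set stood for it. The array medians lay between 3.45 and 3.53, and no detection call was used.

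Genotype and replicate number came from the sample titles. Differences are Runx3-/- minus WT and come from lmFit and eBayes of limma 3.58.1 under R 4.3.3, without covariates, on the deposited values, as two-sided tests with Benjamini-Hochberg adjustment over all 9925 genes. The number of arrays limits the precision. The p-values rest on the spread between individual mice, after limma drew each gene's variance toward a value shared by all genes tested. They thus do not measure the spread of a single gene alone. The fit was tested on simulated data. The alternatives were quantile normalization, median centring, other filters on signal, averaged probe sets, other moderation of variances, array weights, a replicate block and leaving out each array.

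The members, gene lists and tests were chosen with earlier results of these data known. The genes named were the 10 regulators, both genes of each pair, up to 4 genes with the lowest p in each list of the pathway, the 3 brightest tested markers of each cell type, and Cd4, Itgae and Runx3. Others are marked where they appear.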

Additional observations from a re-analysis of the deposited data

How the results depend on the processing

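The differences of the 10 regulators kept their direction under all 16 alternatives. Ubash3a and Grap passed under all of them and Dgka under all but the fit without moderation of variances (limma adjusted p = 0.0678). Ptpn6 passed under 10 of 16, and in the others its adjusted p was between 0.0524 and 0.0726. The 6 regulators that did not pass in the main comparison passed under none. The median of the 10 differences stayed between 0.18 and 0.25 when single arrays were left out. The precision of 3 arrays per genotype, with 95% intervals of 0.20 to 0.28 on either side of a difference, limits what could be called.

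The number of genes called among all tested was 1155, between 620 (without WT replicate 1) and 922 with 1 array left out, and 182 without moderation of variances. Of the regulators, 3 were higher in each fit with 1 array left out, between 0 and 1 were lower, and between 1 and 2 met the 1.5-fold threshold. Without moderation of variances 0 were lower. The other negative regulators counted 0 to 2 higher and 3 to 5 lower with 1 array left out, against 2 and 6. The number higher was 1 with median centring, with no filter on signal and with a signal filter set to the 25th percentile. Without moderation of variances it was 0 higher and 0 lower. The proximal machinery counted 2 to 6 higher with 1 array left out and 0 without moderation of variances, against 8. Among the family relatives the number lower was 0 to 1 with 1 array left out, against 0. In the diacylglycerol and Ras branch the number lower was 0 to 2 with 1 array left out, 2 with quantile normalization, array weights, the replicate block or trend and robust moderation, and 0 without moderation of variances, against 1, and the number higher was 1 with the replicate block or with trend and robust moderation, against 0. With 1 array left out the contrast of Ubash3a with Ubash3b ran between -0.24 and 0.52, and the sign turned without WT replicate 3. Fewer arrays lower the precision of every fit that leaves 1 out, and for the other settings the cause was not tested.

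The replicate numbers of the titles were checked for pairing. Deviations from the group means correlated, across genes, at 0.177, 0.032 and 0 for arrays of the same number, and arrays 2 and 3 of the Runx3-/- group correlated better with a WT array of another number. The value of 0.177, for the arrays numbered 1, was the highest of all combinations. With 3 arrays per genotype these correlations cannot decide whether samples of the same number share more than the number. With the replicate block 1085 genes were called, and among the regulators the same counts of 3 higher and 1 lower.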
